A study of Mus musculus with 36 samples.

Results

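The lung transcriptome was examined on the seventh recovery day (day 28) of a study of hypoxic pulmonary hypertension in BALB/c mice. The exposed mice had spent 21 days at 0.5 atm, which lowers the oxygen they breathe, and then 7 days back at sea-level pressure. Whole lungs of 5 exposed mice were pooled, whole lungs of 5 time-matched control mice were pooled separately, and both pools were compared directly on spotted cDNA arrays carrying 2 dyes. All 4 of the arrays of this day were used, out of 36 arrays in the series. They were chosen by their title, so no measured value entered the choice. Day 21, the last day of hypoxia, and recovery days 22, 24 and 35 (1, 3 and 14 days after the return to sea level), each with 4 arrays and a control pool of its own, served as comparisons.

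Every value is a log2 ratio of exposed to control lung, so 1 stands for a doubling and -1 for a halving. A positive value likely means more RNA in the exposed lung, because the protocol names the hypoxic group and Cy5 first, but no dye swap is recorded and the direction is not settled beyond that. Per the labels, RNA was pooled within each condition and day, so the 4 arrays can share their RNA. The p-values therefore cover array-to-array spread alone, and that spread may be technical. In a bulk sample, fewer cells of a type and less RNA per cell cannot be told apart. A ratio holds no level, and surfactant protein C and club cell secretory protein, the usual marks of lung tissue, had no spot of their own, so the labelled tissue could not be checked against them.

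Chronic hypoxia narrows and thickens the small pulmonary arteries: smooth muscle spreads along vessels that normally lack it, matrix is laid down in their walls, and red cell number rises. On return to normal oxygen, pulmonary pressure falls, surplus red cells are removed and much of the new matrix is taken down. Interferons are signalling proteins that switch on a shared set of defence genes through the STAT and IRF transcription factors. In the resting lung a low tonic signal keeps many of these genes partly on. Chaperones of the endoplasmic reticulum (ER) fold secreted and membrane proteins, and their genes respond together to the load of unfolded protein.

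Both gene groups stood out among the lower values of day 28, and some of their promoters carry the textbook response elements of these pathways. The 250 bases before the transcription start are given for 3 of each, from RefSeq, build GRCm38.p6, 5′ to 3′ on the strand of the gene. Capitals mark the matches. For the interferon-inducible genes these are GAAA, any 2 bases and GAAA again, the core of the interferon-stimulated response element (ISRE), and TTC, any 3 bases and GAA, the gamma-activated site (GAS). For the chaperone genes they are CCAAT, any 9 bases and CCACG, the ER stress response element (ERSE). All were searched on both strands.
Tgtp1, chr11:48992247-48992496, minus strand: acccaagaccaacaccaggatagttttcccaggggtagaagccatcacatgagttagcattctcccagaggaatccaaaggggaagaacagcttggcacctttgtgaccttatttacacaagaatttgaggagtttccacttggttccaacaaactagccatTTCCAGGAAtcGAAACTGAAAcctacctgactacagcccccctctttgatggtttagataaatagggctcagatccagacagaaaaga
Igtp, chr11:58199306-58199555, plus strand: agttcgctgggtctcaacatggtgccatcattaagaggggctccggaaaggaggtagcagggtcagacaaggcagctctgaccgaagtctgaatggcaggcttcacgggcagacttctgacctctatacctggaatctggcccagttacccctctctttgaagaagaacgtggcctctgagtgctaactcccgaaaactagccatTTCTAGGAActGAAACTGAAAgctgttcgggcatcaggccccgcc
Bst2, chr8:71537473-71537722, minus strand: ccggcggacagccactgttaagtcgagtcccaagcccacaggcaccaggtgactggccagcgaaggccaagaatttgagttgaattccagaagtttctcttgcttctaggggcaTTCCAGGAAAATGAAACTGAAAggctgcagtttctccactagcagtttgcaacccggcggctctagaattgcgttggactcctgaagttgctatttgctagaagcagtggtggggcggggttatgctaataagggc
Hspa5, chr2:34771840-34772089, plus strand: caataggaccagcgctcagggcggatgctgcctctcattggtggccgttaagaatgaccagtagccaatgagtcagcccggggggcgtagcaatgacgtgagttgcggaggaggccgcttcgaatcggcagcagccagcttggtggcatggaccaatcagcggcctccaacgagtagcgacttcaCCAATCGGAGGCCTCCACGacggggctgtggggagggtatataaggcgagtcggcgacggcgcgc
Hsp90b1, chr10:86705445-86705694, minus strand: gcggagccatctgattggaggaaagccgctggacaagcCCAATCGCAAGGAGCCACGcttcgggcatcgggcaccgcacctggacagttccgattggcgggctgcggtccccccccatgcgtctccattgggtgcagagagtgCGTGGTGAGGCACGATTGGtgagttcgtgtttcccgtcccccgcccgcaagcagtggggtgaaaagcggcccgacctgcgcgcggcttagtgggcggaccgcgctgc
Pdia6, chr12:17266339-17266588, plus strand: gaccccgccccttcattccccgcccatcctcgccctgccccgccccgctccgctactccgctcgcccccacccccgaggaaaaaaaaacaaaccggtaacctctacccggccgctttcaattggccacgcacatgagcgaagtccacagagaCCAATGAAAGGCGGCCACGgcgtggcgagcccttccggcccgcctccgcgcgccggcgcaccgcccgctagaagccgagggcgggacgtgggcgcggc

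In Tgtp1 a GAS match lay 88 to 80 bases before the start and an ISRE match 77 to 68 bases before it. Igtp held the same pair in the same order, at 45 to 37 and 34 to 25 bases, and the ISRE letters GAAACTGAAA were identical in both. In Bst2 the GAS match (136 to 128 bases) overlapped the first of 2 ISRE matches (130 to 121 and 124 to 115 bases), and those overlapped each other. Of 32851 RefSeq promoter windows of this length, 2.98% held the ISRE letters, 7.02% the GAS letters and 0.332% both. Sp100, Irf9 and Ifitm3, described below with the same group, held neither in this window, while Ifitm2 (ISRE), Irf1 and Irf8 (GAS), which were not called, held a match. Of 10 tested interferon response genes with a listed promoter, 4 held the ISRE letters, Stat2 among them, and 4 the GAS letters. Among the 6 called lower the counts were 3 and 2. The ERSE letters were present in 0.113% of all windows and in 6 of the 14 ER chaperone genes called lower at day 28 for which a promoter was listed: Hspa5, Hsp90b1, Pdia6, Canx, Calr and Dnajc3. Over all tested list members with a promoter it was 7 of 18, the other being Syvn1, which was not called lower (-0.16 ± 0.23, adjusted p = 0.063). Hsp90b1 held it in 2 places. A match is a description of the letters and was not tested as a binding site.

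The 4 arrays had values for 14556 to 14941 of 15388 spots. Replicate 1 had the widest spread of log2 ratios (SD 0.525 over spots, against 0.291, 0.242 and 0.326 in replicates 2 to 4). Across the 11582 features measured on all 4, a line through replicate 1 against the mean of the other arrays had a slope of 1.55 (Pearson r = 0.739 across features, which are not independent replicates). Replicates 1 and 2 correlated at 0.633 across features and replicates 3 and 4 at 0.673, both above the 4 correlations between these pairs (0.504 to 0.626). Because of the spread of replicate 1, many results are also given without it. Correlations between the pairs were lower on the comparison days: -0.203 to 0.184 at day 21 and -0.247 to -0.089 at day 22. At day 24 they were 0.366 to 0.416 and at day 35 0.141 to 0.312. The day 21 and day 22 means thus rest on pairs that were not alike across features.

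**Figure D1:**
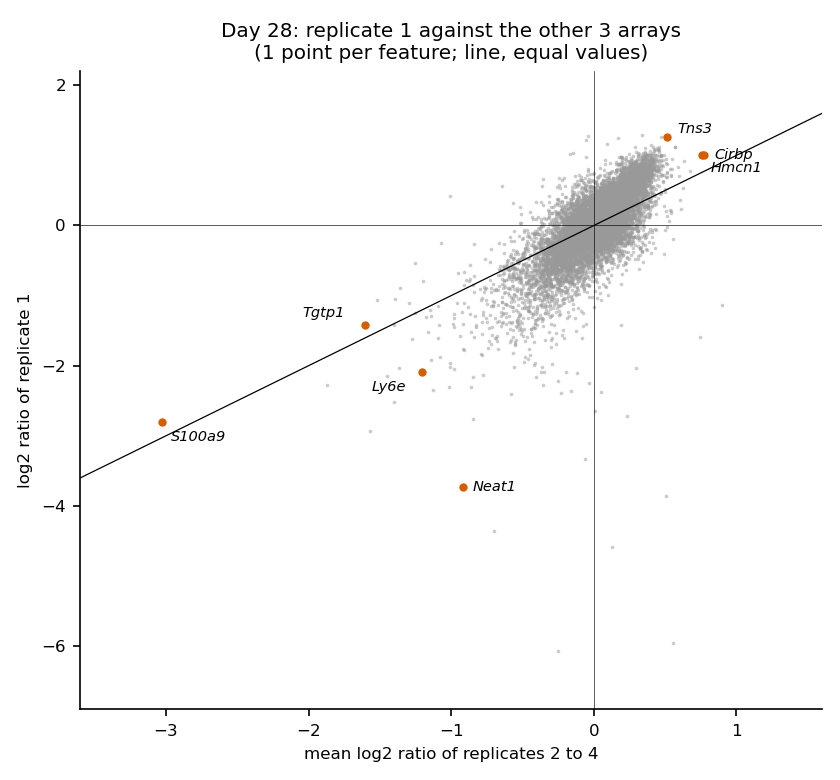
Log2 ratio of replicate 1 (vertical axis) against the mean log2 ratio of replicates 2 to 4 (horizontal axis) at day 28, 1 point per feature (a gene or an unnamed spot), with the line of equal values. The cloud is steeper than the line (slope 1.55), Neat1 lies far below it, and S100a9 and Tgtp1 lie slightly above it.

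A large share of the transcriptome differed from control on this day. With limma, 3942 of 12275 features passed an adjusted p of 0.05 and are said to be called (32.1%), 2280 of them higher (18.6%) and 1662 lower (13.5%) in exposed lung. The changes were small on the higher side and reached further on the lower side: the median size was 0.36 among called features, the highest mean was 0.83, and 55 features were lower by 1 or more. Over all features tested, 48.3% had the same sign on every measured array. Without replicate 1 the count was 2159 of 12409 (17.4%), with 1186 higher (9.56%) and 973 lower (7.84%), and 2111 features were called in both fits. Replicate 1 was the array farthest from 0 for 3059 of the called features. Replicates 1 and 2 had the same mean sign as replicates 3 and 4 in 74.1% of the 11582 tested features with values in both pairs, and 1916 features were called in each pair alone.

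Interferon-inducible genes were lower in exposed lung. Tgtp1, an interferon-inducible GTPase whose cDNA can also detect its near-identical copy Tgtp2, read -1.42, -1.66, -1.55 and -1.61 on the 4 arrays, a mean of -1.56 ± 0.10 (SD, n = 4; adjusted p = 1.9e-15). Igtp, a GTPase of the same family that acts on vacuoles holding intracellular parasites, read -1.05, -1.44, -1.26 and -1.48 (mean -1.31 ± 0.20, adjusted p = 1.5e-09). Phf11d, a PHD finger gene, read -1.41, -1.40, -1.43 and -1.37 (mean -1.41 ± 0.02, adjusted p = 5.2e-11). All 12 of these values lay below -1, so exposed lung had less than 0.5 of the control signal on every array.

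Membrane and nuclear members of the response followed. Bst2, the tetherin that holds enveloped viruses at the cell surface, read -1.25, -0.92, -1.44 and -1.39 (mean -1.25 ± 0.23, adjusted p = 5.7e-07). Sp100, a protein of nuclear bodies, read -1.11, -1.42, -1.05 and -1.41 (mean -1.25 ± 0.19, adjusted p = 2.2e-10). Ly6e, an interferon-inducible surface protein, read -2.10 on replicate 1 and -1.09, -1.18 and -1.35 on the others (mean -1.43 ± 0.46, adjusted p = 6e-11; -1.21 without replicate 1). Ifitm3, which blocks virus entry, had a mean of -0.85 ± 0.16 (n = 4), and Ddx58, the RNA sensor RIG-I, one of -0.67 ± 0.23 (n = 4). On Ddx58 replicate 3 stood apart at -0.32, against -0.80, -0.77 and -0.80.

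The signalling subunits were lower too. Stat2, which acts with Irf9 at the ISRE, read -1.40, -0.79, -1.06 and -1.12 (mean -1.09 ± 0.25, adjusted p = 3.9e-09). Irf9, the DNA-binding subunit, read -1.01 and -1.06 on replicates 1 and 2 but -0.37 and -0.50 on replicates 3 and 4 (mean -0.74 ± 0.35, adjusted p = 9.5e-08). Both pairs of arrays were below 0, and the size differed between them. In the list of interferon response genes, 6 of 11 tested members were called lower and 1 higher, against 13.5% and 18.6% over all features. Their median was -0.74, against 0.04 over all features. Without replicate 1, 6 of 12 were called lower and none higher. The higher member was Ifi30, a lysosomal reductase of antigen presentation, at 0.24 ± 0.10 (adjusted p = 0.0036, and 0.058 without replicate 1). Irf1 (-0.26 ± 0.18, adjusted p = 0.11), Irf8, Ifitm2 and Tap2 were not called. Tgtp1, Phf11d, Ly6e and Ddx58 are not members of this list. Tgtp1, Phf11d and Ly6e were named for their low means, and Ddx58 came from the list of splicing and RNA-binding proteins.

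**Figure D2:**
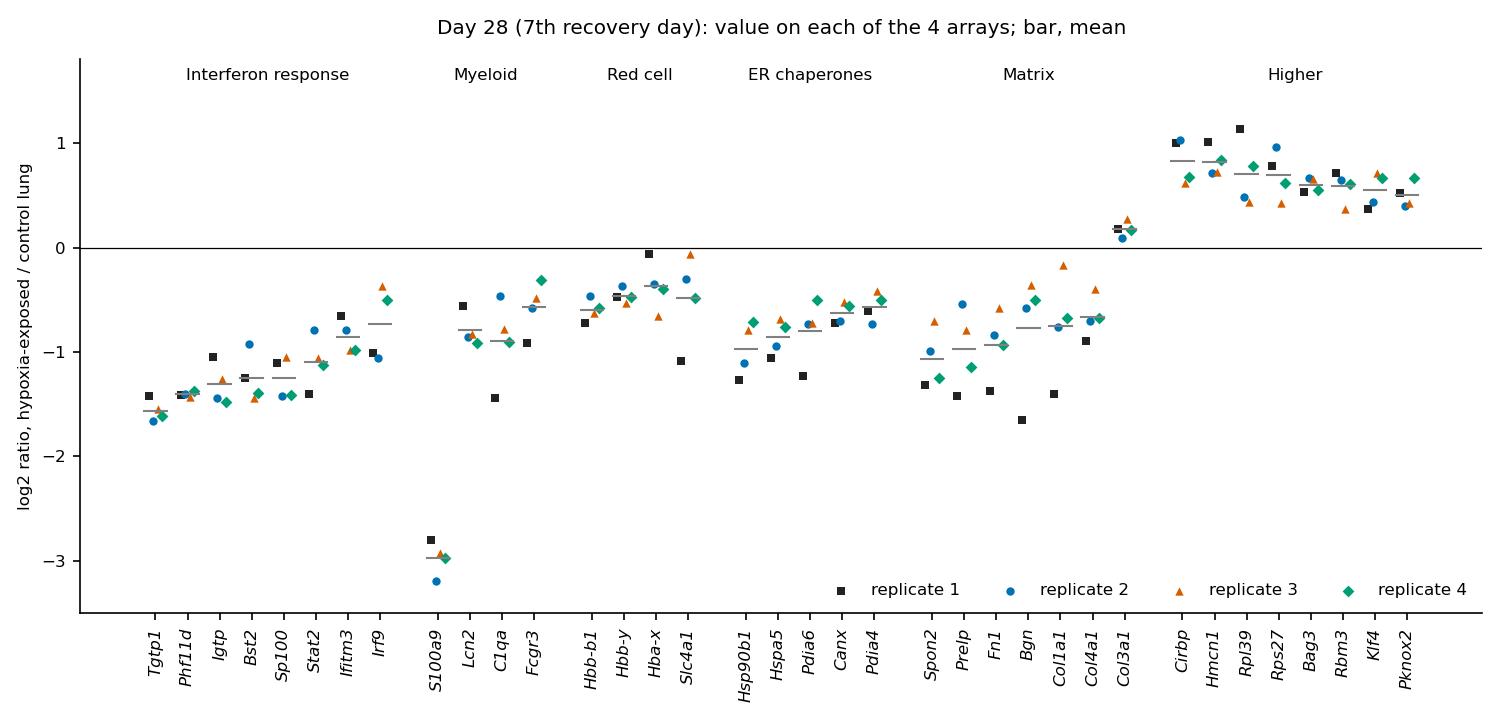
Log2 ratio of exposed to control lung (vertical axis) on each of the 4 day 28 arrays, 1 symbol per replicate, for genes of 5 groups with lower values and for genes with higher values; grey bars are means. Tgtp1 and Phf11d lie within narrow ranges near -1.5, S100a9 lies near -3, and replicate 1 is the lowest array for C1qa, Bgn and Col1a1.

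The genes of this group that were followed over days lay nearer to 0 at the end of hypoxia and on the other recovery days. Tgtp1 had day means of 0.02, 0.04, -0.30 and -0.06 at days 21, 22, 24 and 35. Igtp had 0.10, 0.07, -0.17 and 0.13, and Bst2 -0.13, 0.17, 0.01 and 0.01. For Tgtp1 the difference between day 28 and day 21 was -1.58 ± 0.11 (SE, adjusted p = 2.4e-11), and that from the mean of the other recovery days -1.45 ± 0.09 (SE, adjusted p = 4.6e-13). Bst2 (-1.31 against the other recovery days, adjusted p = 4.9e-06) and Phf11d (-1.30, adjusted p = 8.9e-09) followed. Of the 11 list members, 6 were called lower and 1 higher in each of the 2 difference tests, in which 4.02% and 6.2% of all features were called lower. Each day has a single control pool, so exposed and control pools cannot be told apart as the side that moved.

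**Figure D3:**
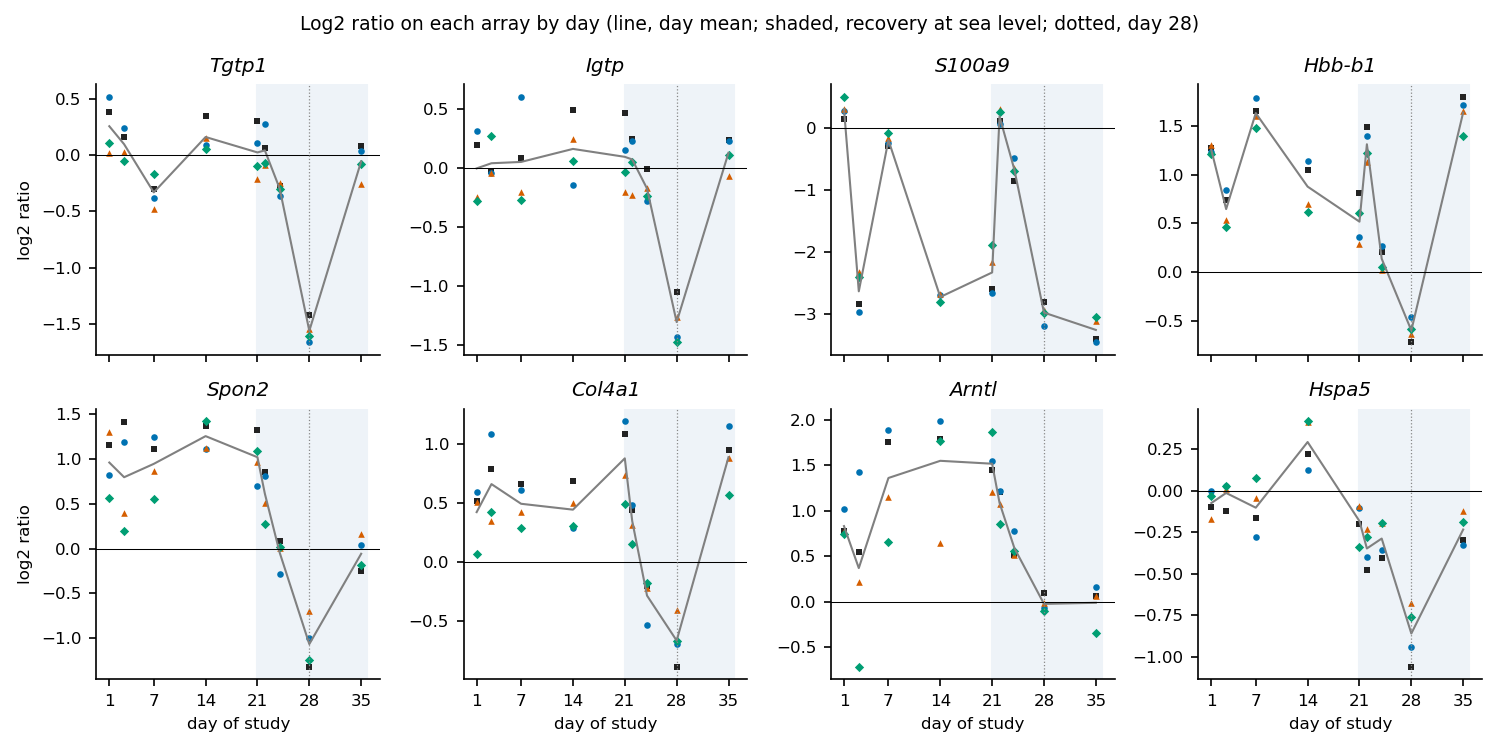
Log2 ratio (vertical axis) of 8 genes on each array against the day of the study (horizontal axis), with the line through day means, recovery shaded and day 28 dotted; symbols mark replicates as in the plot of day 28 values by array. The day means of Tgtp1 and Igtp lie nearer to 0 than to their day 28 value on every other day, Hbb-b1 lies above 0 on every day but day 28, and Spon2, Col4a1 and Arntl start recovery high and lie at or below 0 at day 28.

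Some neutrophil and macrophage genes were lower. S100a9, a calcium-binding protein abundant in neutrophils, had the lowest mean of all named genes at -2.80, -3.19, -2.92 and -2.97 (mean -2.97 ± 0.16, adjusted p = 1.1e-19), which is 0.128 of control. It also read far below control at days 21 (-2.32) and 35 (-3.25), but 0.19 and -0.66 at days 22 and 24, so its course is not a steady one. Lcn2, which withholds iron from bacteria, had -0.56, -0.86, -0.83 and -0.91 (mean -0.79 ± 0.16, adjusted p = 8e-05). Lcn2 had means of 0.38, 0.00 and 0.38 at days 22, 24 and 35, whereas S100a9 lay below control at days 24 and 35. Of 5 neutrophil genes tested these 2 were called lower (3 without replicate 1) and none higher (4 lower and 0 higher at an unadjusted p under 0.05), where 13.5% of all features were lower.

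Of 8 macrophage and monocyte genes, 3 were lower and none higher, against 13.5% and 18.6% over all features. At an unadjusted p under 0.05, 4 were lower and 0 higher. C1qa, a chain of the first complement component made by macrophages, read -1.44, -0.46, -0.78 and -0.90 (mean -0.90 ± 0.41, adjusted p = 4.7e-05). The Fc receptor Fcgr3 (-0.57 ± 0.25) and the oxidase subunit Cybb (-0.50 ± 0.16) were the others. In the list of matrix proteases, cathepsins and inhibitors, 7 of 22 were lower and 2 higher (5 and 0 without replicate 1), against the same shares. The lower ones included the lysosomal cathepsins Ctsd (-0.82 ± 0.58), Ctsb (-0.66 ± 0.24), Ctsh (-0.44 ± 0.13), Ctsa (-0.37 ± 0.16) and Ctsc (-0.28 ± 0.20), Ctsa not without replicate 1 (adjusted p = 0.066). Ctsz (-0.24 ± 0.14, adjusted p = 0.088) and Ctsl (-0.05 ± 0.05, adjusted p = 0.56) did not pass. The spread of Ctsd came from replicate 1 (-1.63, against -0.30 to -0.77). Whether fewer of these cells were in the lung was not tested. Among markers of other cells, 1 of 2 lymphocyte genes was lower and 1 higher (1 and 0 without replicate 1), and neither of 2 MHC class II genes was called (1 higher without replicate 1).

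Globin RNA, which red cells can carry into whole lung, was below control at day 28 and above it at days 21, 22, 24 and 35. Hbb-b1, adult beta globin, read -0.72, -0.46, -0.63 and -0.58 (mean -0.60 ± 0.11, adjusted p = 4e-06). Hbb-y read -0.47, -0.37, -0.53 and -0.47 (mean -0.46 ± 0.07, adjusted p = 8.1e-05). Hba-x read -0.06, -0.35, -0.66 and -0.40 (mean -0.37 ± 0.25, adjusted p = 0.043) and lost its call without replicate 2, 3 or 4 (adjusted p 0.092 to 0.22). Hbb-y and Hba-x are embryonic globins, and whether their spots also bind adult globin RNA was not tested.

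The day means of Hbb-b1 were 0.52 at day 21, 1.31 at day 22, 0.14 at day 24 and 1.64 at day 35. Its 4 day 28 arrays lay below the means of all those days. Lying outside the other recovery means was also a condition for naming genes by that comparison. Hbb-b1 was, besides, in the set chosen for the question whatever its value. The difference of Hbb-b1 from the other recovery days was -1.63 ± 0.10 (SE, adjusted p = 1.6e-13). That from day 21 was -1.12 ± 0.12 (SE, adjusted p = 1.4e-07). The spots annotated as Got2 (-0.67 at day 28, then 1.43 at day 35) and Phtf1 (-0.52, then 1.49) ran alongside the globins on these days, although neither gene codes for a globin. The red cell anion exchanger Slc4a1 was lower at -0.48 ± 0.44 (adjusted p = 0.0004), or -0.28 without replicate 1. Unlike the globins, it lay near control at days 22 (0.07) and 35 (0.05). The first enzyme of heme synthesis in red cell precursors, Alas2, was not called against control (-0.28 ± 0.19, adjusted p = 0.16). Its means at days 22, 24 and 35 were 0.65, 0.00 and 0.83, each above its day 28 mean. Of 7 globin and red cell membrane genes, 4 were called lower and none higher (the same counts at an unadjusted p under 0.05). Over all features, 13.5% were called lower and 18.6% higher.

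Genes of ER chaperones and the unfolded protein response had the largest share of lower members among lists with at least 10 genes tested: 16 of 21 were called lower and 1 higher, with a median of -0.56. The count was 15 lower and 1 higher without replicate 1. Over all features the shares were 13.5% lower and 18.6% higher, and 7.84% and 9.56% without replicate 1. Hsp90b1, the ER form of the chaperone HSP90, read -1.27, -1.11, -0.79 and -0.71 (mean -0.97 ± 0.26, adjusted p = 1.6e-08). Hspa5, the master chaperone BiP, read -1.06, -0.94, -0.68 and -0.76 (mean -0.86 ± 0.17, adjusted p = 2.8e-11). Its 3 spots were all lower but differed in size, from -1.30 to -0.39. Pdia6, which forms disulfide bonds, read -1.23, -0.73, -0.72 and -0.50 (mean -0.80 ± 0.31, adjusted p = 1.3e-06).

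The lectin chaperone Canx (-0.62 ± 0.10), the disulfide isomerase Pdia4 (-0.57 ± 0.13) and the cochaperone Dnajc3 (-0.60 ± 0.06) were lower on all 4 arrays. The spots of Canx ranged from -1.68 to -0.04. The member called higher was Atf6, a membrane-bound sensor that is cut to release a transcription factor, at 0.25 ± 0.11 (adjusted p = 0.0024). Hspa5 was already slightly below control at day 21 (-0.18) and at days 22, 24 and 35 (-0.35, -0.29 and -0.23). In the 2 difference tests, 8 of 21 members were lower than at day 21, where 4.02% of all features were, and 13 of 21 were lower and 1 higher than over the other recovery days, where 6.2% of all features were lower and 9.11% higher.

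Of 33 cytosolic and mitochondrial chaperones, 14 were lower and 6 higher (12 and 5 without replicate 1). The share of higher members was close to the 18.6% over all features, and that of lower members lay above the 13.5%. Hspa4l, a nucleotide exchange factor of the HSP110 family, read -1.76, -1.21, -0.76 and -0.79 (mean -1.13 ± 0.47, adjusted p = 3.8e-09). Stip1, which links HSP70 to HSP90, had a mean of -0.75 ± 0.23, and the constitutive HSP70 Hspa8 -0.73 ± 0.47. On the other side, Bag3, a partner of HSP70 in autophagy, read 0.53, 0.67, 0.66 and 0.55 (mean 0.60 ± 0.07, adjusted p = 6.7e-09). Zfand2a (0.60 ± 0.24), which attaches to the proteasome under stress, and the HSP40 Dnaja1 (0.30 ± 0.06) were also higher.

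RNA-binding proteins known for their response to cold were among the highest genes. Cirbp, the cold-inducible RNA-binding protein, had the highest mean of all named genes at 1.00, 1.03, 0.62 and 0.68 (mean 0.83 ± 0.22, adjusted p = 6.5e-06). Rbm3, its close relative, read 0.71, 0.65, 0.37 and 0.61 (mean 0.59 ± 0.15, adjusted p = 2.1e-08). Both were above the other recovery days, Cirbp by 0.83 ± 0.14 (SE, adjusted p = 0.00017) and Rbm3 by 0.58 ± 0.07 (SE, adjusted p = 6.5e-07). Neither difference from day 21, where they read 0.44 and 0.41, passed. In the wider list of splicing and RNA-binding proteins, 21 of 112 were higher and 16 lower (13 and 9 without replicate 1), close to the share over all features; the splicing factor Srsf5 was the lowest (-0.94 ± 0.56, or -0.67 without replicate 1).

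Several matrix genes that had been above control at the end of hypoxia were below it at day 28, and others were not. Of 10 elastic fibre and matricellular genes, 4 were lower and none higher, against 13.5% and 18.6% over all features. At an unadjusted p under 0.05, 4 were lower and 1 higher. Spon2, a secreted protein that binds bacteria and integrins, read -1.32, -0.99, -0.70 and -1.25 (mean -1.06 ± 0.28, adjusted p = 2.6e-06) after a mean of 1.02 at day 21. Its difference of -2.08 ± 0.21 (SE, adjusted p = 3.6e-08) was the largest fall since day 21 among the genes named by that test. Fn1, fibronectin, read -1.37, -0.84, -0.58 and -0.93 (mean -0.93 ± 0.33, adjusted p = 2.7e-07), from 0.32 at day 21. Col1a1, a chain of the main fibrillar collagen, read -1.40, -0.76, -0.17 and -0.67 (mean -0.75 ± 0.50, adjusted p = 0.00013), from 0.55. Every array of these 3 genes was below 0.

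Basement membrane collagen was divided by chain. Col4a1 read -0.89, -0.70, -0.40 and -0.67 (mean -0.67 ± 0.20, adjusted p = 3.6e-05) from 0.88 at day 21, and its 2 spots gave -1.01 and -0.32. At day 35 its mean was 0.89 again. Col4a5, a chain of a separate collagen IV network, was higher at 0.58 ± 0.19 (adjusted p = 1.1e-06). Col3a1 read 0.18, 0.09, 0.27 and 0.17 (mean 0.18 ± 0.07, adjusted p = 0.012), so it was still slightly above control, and it lost its call without replicate 3 (adjusted p = 0.077). Of 15 collagens and collagen-modifying enzymes, 7 were lower and 2 higher (5 and 2 without replicate 1), against 13.5% and 18.6% over all features. From day 21, 8 were lower, where 4.02% of all features were.

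Mfap4 and Tnc, also above control at day 21, were not called at day 28. Mfap4, an elastic fibre protein, read -0.16, 0.09, 0.09 and -0.06 (mean -0.01 ± 0.12, adjusted p = 0.96) after 1.37 at day 21, a difference of -1.38 ± 0.20 (SE, adjusted p = 2e-05). Tnc, tenascin C, which appears in remodelling vessel walls, read -0.22, -0.17, 0.14 and -0.11 (mean -0.09 ± 0.16, adjusted p = 0.49) after 0.80. Its difference was -0.89 ± 0.13 (SE, adjusted p = 2e-05). Both straddled 0 on the 4 arrays.

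Of 14 matrix proteoglycans, a list that holds small leucine-rich proteins, syndecans and glypicans, 7 were called lower and 2 higher (5 and 2 without replicate 1). Over all features, 13.5% were lower and 18.6% higher. Prelp, a small leucine-rich protein that binds collagen, read -1.42, -0.54, -0.79 and -1.14 (mean -0.97 ± 0.39, adjusted p = 2e-06). Bgn, biglycan, had -0.77 ± 0.59 (adjusted p = 0.0002), or -0.48 without replicate 1. Dcn, decorin, had -0.62 ± 0.63 and was not called without replicate 1 (-0.32, adjusted p = 0.11). Lum, lumican, went the other way at 0.33 ± 0.14. Ltbp1, which tethers latent TGF-beta to the matrix, was lower, with -1.11, -1.65, -0.73 and -0.51 on the 4 arrays (adjusted p = 0.0003).

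Receptors of the BMP and TGF-beta family, in which BMPR2 is the gene most often mutated in heritable pulmonary hypertension, changed in both directions. The coreceptor Tgfbr3 (betaglycan) read -1.92, -1.24, -0.93 and -1.26 (mean -1.34 ± 0.42, adjusted p = 2.2e-06). Bmpr2 read -0.47, -0.66, -0.36 and -0.35 (mean -0.46 ± 0.15, adjusted p = 0.01), and lost its call without replicate 2 (adjusted p = 0.067). Tgfbr2 had a mean of -0.45 ± 0.22, against 0.25 at day 21, while its partner Tgfbr1 was slightly higher (0.21). Id1 (0.32 ± 0.10) and Id3 (0.45 ± 0.22), inhibitors of differentiation that BMP signals switch on, were higher, Id1 not without replicate 1 (adjusted p = 0.058), and Id2 of the same family was not called (-0.09 ± 0.11, adjusted p = 0.59). Over the list of 22, 6 were lower and 6 higher (5 and 2 without replicate 1), against 13.5% and 18.6% over all features. The list median was -0.04. The TGF-beta-induced adhesion protein Tgfbi was among the lower ones (-0.50 ± 0.13).

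Vessel genes outside this family were few on the array. The thrombin receptor F2r read -1.07, -1.59, -0.87 and -2.10 (mean -1.41 ± 0.55, adjusted p = 1.5e-08). Of 7 endothelial markers, 3 were lower and 1 higher, against 13.5% and 18.6% over all features. Without replicate 1 the counts were 1 and 1, against 7.84% and 9.56%. Cd34 (adjusted p = 0.39) and Esam (adjusted p = 0.43) lost their calls there. Cd93, a surface lectin of endothelium and myeloid cells, read -2.02, -0.74, -1.13 and -1.15 (mean -1.26 ± 0.54, adjusted p = 3.9e-05). Emcn, endomucin of capillaries and veins, was higher at 0.52 ± 0.21, and VE-cadherin (Cdh5) was not called (0.05 ± 0.17, adjusted p = 0.60). The called endothelial genes thus differed in direction.

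Of 10 contractile genes of smooth muscle, calponin Cnn1 (-0.56 ± 0.23) and tropomyosin Tpm2 (-0.53 ± 0.17) were lower, also without replicate 1, and none was higher (0 higher and 2 lower at an unadjusted p under 0.05). Over all features, 13.5% were called lower and 18.6% higher. The PDGF receptor Pdgfrb of mural cells was lower (-0.50 ± 0.31). In coagulation and complement, 7 of 13 were lower (5 without replicate 1) and none higher (10 lower and 0 higher at an unadjusted p under 0.05), among them the protein C receptor Procr (-0.37 ± 0.15).

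Of 7 alveolar type II genes, 3 were lower and none higher, with and without replicate 1. Over all features, 13.5% were lower, and 7.84% without replicate 1. Slc34a2, the phosphate transporter of these cells, had a mean of -0.83 ± 0.39, but its 3 spots ranged from -2.40 to 0.21. The transcription factor Etv5 had -0.77 ± 0.37. Surfactant protein D (Sftpd) read -0.33, -0.53, -0.43 and -0.49 (mean -0.45 ± 0.09, adjusted p = 2.8e-06). Its 4 arrays were close, and it had stood at 0.12 at day 21. In the airway epithelium list 1 of 7 was lower and 1 higher, close to the 13.5% and 18.6% over all features. These were the keratin Krt8 (-0.60 ± 0.28) and the glutathione transferase Gsto1 (0.28 ± 0.15, adjusted p = 0.015, and 0.14 without replicate 1).

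Arntl and Nr1d2, clock genes that stood away from control at the end of hypoxia, were not called at day 28, while 4 other clock genes were. Arntl (BMAL1), the activator of the clock, read 0.10, -0.07, -0.02 and -0.11 (mean -0.02 ± 0.09, adjusted p = 0.95). It had stood at 1.52 at day 21, 1.09 at day 22 and 0.59 at day 24, and the difference from day 21 was -1.54 ± 0.29 (SE, adjusted p = 0.00081). Nr1d2, a repressor of Arntl, read -0.30, -0.31, 0.04 and 0.05 (mean -0.13 ± 0.20, adjusted p = 0.33) after -0.89 at day 21. That rise was 0.76 ± 0.13 (SE, adjusted p = 0.00045). Per3 had a mean of -0.03 ± 0.19 (adjusted p = 0.89). Cry1 (0.37 ± 0.24) and the kinase Csnk1d (0.31 ± 0.11) were higher. Ciart, a repressor of the clock, read 0.25, 0.25, 0.24 and 0.20 (adjusted p = 0.033), and lost its call when any 1 array was left out. The transcription factor Tef was lower (-0.31 ± 0.34, adjusted p = 0.021, and 0.31 without replicate 1). In all, 3 of 11 clock genes were called higher and 1 lower (2 and 0 without replicate 1), at background shares of 18.6% and 13.5%. The hour at which lungs were taken is not given in the sources used here.

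Genes of the hypoxia response changed in both directions, and Hif1a and Slc2a1 were not called. Hif1a, the oxygen-regulated factor, had 0.06 ± 0.12 (adjusted p = 0.56), and the glucose transporter Slc2a1 -0.03 ± 0.08 (adjusted p = 0.79). In the list of 18 HIF pathway genes, 3 were higher and 5 lower (2 and 3 without replicate 1), against 18.6% higher and 13.5% lower over all features, and none was called in the difference from day 21. Car9, a carbonic anhydrase, was higher (0.44 ± 0.21), as was Vhl, which marks HIF for degradation (0.31 ± 0.18). Pfkfb3, a switch of glycolytic flux, was lower at -0.91, -0.48 and -0.53 on the 3 arrays that measured it (mean -0.64 ± 0.24, SD, n = 3).

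Glycolysis enzymes and transporters were lower in 8 of 14 and higher in 1 (5 lower without replicate 1). Over all features, 13.5% were lower and 18.6% higher. Gapdh read -1.45, -0.55, -0.39 and -0.61 (mean -0.75 ± 0.48, adjusted p = 1.4e-05), and the transporter Slc2a3 had -0.68 ± 0.18. Actb, commonly used as a reference gene, was lower too at -0.42 ± 0.40 over 10 spots (adjusted p = 0.0005; -0.23 without replicate 1). Actin regulators and tubulins were lower in 23 of 44 and higher in 5, which became 13 and 2 without replicate 1. The adaptor Lasp1 (-1.13 ± 0.56) and Actr3, a subunit of the actin-branching complex (-0.73 ± 0.35), were the examples with large values. The integrin beta 1 chain Itgb1 read -1.47 on replicate 1 and -0.45, -0.29 and -0.48 on the others.

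Ribosomal protein genes had the largest share of higher members among lists with at least 10 genes tested: 44 of 68 were called higher and 0 lower with limma (50 higher and 0 lower at an unadjusted p under 0.05), with a median of 0.30. Without replicate 1 the count was 27 higher. Over all features, 18.6% were higher and 13.5% lower, and 9.56% and 7.84% without replicate 1. Rpl39 read 1.13, 0.48, 0.44 and 0.78 (mean 0.71 ± 0.32, adjusted p = 0.00012), and Rps27 0.78, 0.96, 0.43 and 0.62 (mean 0.70 ± 0.23, adjusted p = 0.00077). Many of these genes have processed pseudogenes whose copies a cDNA spot can share. Of 55 oxidative phosphorylation subunits, 16 were higher and 4 lower, with a median of 0.14. Without replicate 1 the median was 0.11, and 4 were called higher and 0 lower with limma. Translation factors and tRNA synthetases, by contrast, were lower in 20 of 75 and higher in 9 (14 and 5 without replicate 1). The initiation factor Eif4b was an example (-0.70 ± 0.24). The proteasome subunit Psmd2 was low (-0.69 ± 0.26), while its list had 5 of 36 lower and 2 higher (2 and 0 without replicate 1). That share of lower members was close to the 13.5% over all features, and that of higher members lay below the 18.6%.

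**Figure D4:**
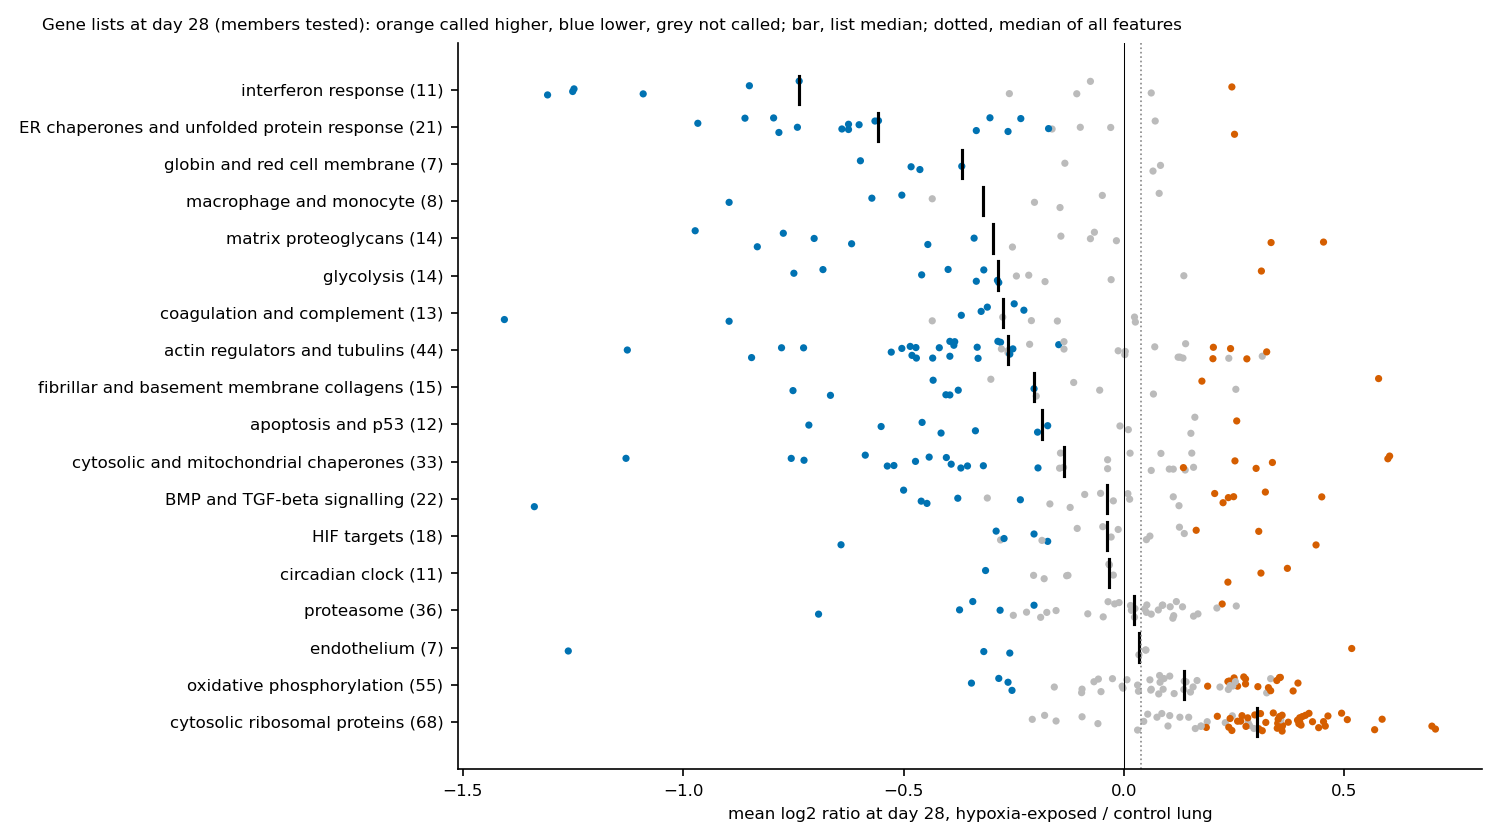
Mean log2 ratio at day 28 (horizontal axis) of the tested members of 18 gene lists, 1 point per gene, with the number tested in brackets; orange and blue mark members called higher and lower, grey those not called, and bars list medians. The median lies at -0.74 for interferon response genes, at -0.56 for ER chaperones and at 0.30 for ribosomal proteins, against 0.04 for all features (dotted).

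Survival and stress genes were lower in several cases. Of 12 apoptosis and p53 genes, 7 were lower and 1 higher (6 and 1 without replicate 1), against 13.5% and 18.6% over all features. Birc3, an inhibitor of apoptosis, read -1.16, -0.57, -0.36 and -0.76 (mean -0.72 ± 0.34, adjusted p = 1.2e-06). The death receptor Fas (-0.55 ± 0.21), the p53 ligase Mdm2 (-0.46 ± 0.34) and the survival factor Mcl1 (-0.42 ± 0.19) were the other named members. Gpx3, a secreted glutathione peroxidase, read -2.16, -0.79, -0.70 and -1.06 (mean -1.18 ± 0.67, adjusted p = 4.2e-07) from 0.26 at day 21. The antioxidant regulator Nfe2l2 (-0.61 ± 0.33) and Txnip, which inhibits thioredoxin (-0.54 ± 0.27), were lower with it. In that list 10 of 27 were lower and 3 higher, which became 5 and 1 without replicate 1. The lipases Lpl (-0.63 ± 0.22) and Pnpla2 (-0.63 ± 0.58, or -0.36 without replicate 1) were lower. Their lipid list had 10 lower and 4 higher of 27 (5 and 1 without replicate 1). For the antioxidant and lipid lists too, the shares over all features were 13.5% lower and 18.6% higher. Without replicate 1 these shares were 7.84% and 9.56%.

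Among the remaining genes with the lowest values, Neat1, a long noncoding RNA that builds nuclear paraspeckles, read -3.73, -0.98, -0.67 and -1.11 (mean -1.62 ± 1.42, adjusted p = 1.2e-05). Its mean without replicate 1 was -0.92. Tcn2, the vitamin B12 carrier transcobalamin, read -2.30, -1.02, -0.91 and -1.12 (mean -1.34 ± 0.65, adjusted p = 3.8e-07). Both were below 0 on all arrays, with replicate 1 well below the rest.

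Among the higher genes, Hmcn1, a large basement membrane protein (hemicentin), read 1.01, 0.71, 0.72 and 0.84 (mean 0.82 ± 0.14, adjusted p = 4.6e-09). Tns3, a focal adhesion tensin, read 1.26, 0.47, 0.42 and 0.65 (mean 0.70 ± 0.39, adjusted p = 9.8e-06). The other genes with the highest means, each positive on all 4 arrays, were the transcription factor Dach1 (0.65), the adaptor Gab1 (0.62), Tcaf1 (0.62), Cmtm3 (0.62), Cttnbp2 (0.61), Fam216a (0.61) and Gas6, the ligand of TAM receptors that clear dying cells (0.61).

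To ask which differences had changed since the end of hypoxia, day 21 was subtracted from day 28. With limma, 777 of 12123 features differed (6.41%), 290 higher (2.39%) and 487 lower (4.02%), and for 12.4% of features the arrays of both days did not overlap. Without replicate 1 of day 28 the count was 243. With all arrays set to a common spread the counts were 132 higher and 373 lower. The genes that fell most, beside Spon2, Col4a1 (-1.54), Arntl, Igtp, Tgtp1 and Mfap4, were Cdk19 and Gpx3. Cdk19, a kinase of the Mediator complex, went from 1.79 to -0.15 ± 0.15 (SD, n = 4), a difference of -1.94 ± 0.11 (SE, adjusted p = 6.7e-14), and had stood at 0.04 already at day 22. Gpx3 fell by 1.43 (adjusted p = 2e-05).

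The largest rise since day 21 was that of Igfbp3, which binds insulin-like growth factors: it went from -0.84 to 0.49, 0.13, 0.12 and 0.07 at day 28, a difference of 1.05 ± 0.12 (SE, adjusted p = 2.5e-07). Pknox2, a homeobox gene, rose by 0.97 (adjusted p = 2.6e-08) to 0.50 ± 0.12. The ephrin Efna1 rose by 0.85 (adjusted p = 4.6e-08) and the carbonyl reductase Cbr2 of airway cells by 0.79 (adjusted p = 0.00066). Klf4, a transcription factor of resting endothelium and smooth muscle, rose by 0.71 (adjusted p = 6.5e-06) to 0.55 ± 0.17. Hmcn1 rose by 0.62 (adjusted p = 0.00066). The clock-controlled ubiquitin protease Usp2 rose by 0.66 (adjusted p = 0.0099), although its own day 28 value of 0.15 ± 0.22 did not pass. Igfbp3 at day 28 was likewise not called against control (0.20 ± 0.19, adjusted p = 0.057).

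To ask whether day 28 stood apart within recovery, the mean of days 22, 24 and 35 was subtracted from it. With limma, 1849 of 12073 features differed (15.3%), 1100 higher (9.11%) and 749 lower (6.2%). With each array centred on its median the split was 853 higher and 885 lower. Without replicate 1 the count was 506. Besides the interferon, globin and cold-inducible genes, Pknox2 (0.74, adjusted p = 2.6e-08), Hmcn1 (0.64, adjusted p = 1.1e-05) and Tns3 (0.67, adjusted p = 0.00042) were above the other recovery days. So were the phosphatase Ctdspl (0.55, adjusted p = 1.3e-05), the Rac regulator Chn1 (0.56, adjusted p = 0.0034) and Ankrd33b (0.72, adjusted p = 0.0089; 0.53 and 0.15 without replicate 1). S100a9 was below their mean by -1.73 (adjusted p = 2.9e-12), but day 35 alone lay lower still. Across features, the day 28 means were most like those of day 24 (r = 0.722) and least like those of day 35 (r = 0.222), as a description of these arrays.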

How the data were processed

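Per the labels' protocols, whole lungs of 5 exposed and 5 control mice were pooled for each day, cDNA was labelled with Cy5 and Cy3, and the authors corrected intensities for background, removed poor spots, took log2 ratios of medians and normalised them by lowess. These deposited log2 ratios were used unchanged; the removed spots stayed empty, and channel intensities were not used here, so signal over background is unknown. The number of arrays limits the precision. Spot names came from the platform's annotation table: 9598 of 15388 had 1 symbol, 514 several and 5276 none, and 9510 matched RefSeq genes (GRCm38.p6, names only). Spots of 1 gene were averaged, giving 12761 features of which 6971 are genes.

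Each day's mean was fitted on all 36 arrays with limma 3.58.1 (lmFit, eBayes; R 4.3.3) and tested two-sided against 0 or another day, with Benjamini-Hochberg adjustment over all features and a threshold of 0.05. A feature needed 3 of 4 arrays at each day compared, or 2 of 3 without replicate 1. Standard errors are of the fit and SDs of the arrays. The fit was tested on simulated data with independent noise of equal spread on all arrays. That noise lacked the likeness within replicate pairs and the wider spread of replicate 1. The simulation therefore cannot show how the p-values behave with these. The alternatives left out each array, took array pairs alone, as a block or as means, and changed the block, days, spread, weights, centring, filter and probes. Arrays of different days with the same replicate number did not all deviate together (median r of deviations 0.385, lowest -0.111; 88.2% of 144 pairs over 0.1). The other number of the same pair (1 with 2, 3 with 4) was as close (0.406), against -0.248 for all different numbers, so the numbers were not taken to pair samples.

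Members and gene lists were chosen with earlier results of these data known, and no list was given a test. Named genes are, with a symbol that is not a placeholder, up to 12 largest called means in each direction with 1 sign on all arrays with and without replicate 1, up to 8 differences in each direction for each other comparison, up to 4 called members of a list with the lowest p (otherwise up to 2), and a set chosen for the question. Genes named by the difference from day 21 needed day 28 arrays that did not overlap those of day 21. Genes named by the other difference needed day 28 arrays outside the range of the other recovery means. Ifitm3, Ifi30, Pdia6, Pdia4, Dnajc3, Atf6, Hspa8, Zfand2a, Id1, Id3, Tgfbr1, Ctsa, Ctsc, Ciart, Tef, Gsto1, Ppox and Actb, and the members named as not called, were chosen after their values were seen. So were Jun, Atf3, Ier5 and Fos, which are left out of the counts of named genes. Promoters are the RefSeq table's windows, each from 1 listed start.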

Additional observations from a re-analysis of the deposited data

Results flagged for a closer look

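In 11 genes 1 of the 4 day 28 arrays lay far from the other 3, judged by its gap to the nearest array over the whole range. Chance alone flags about 1 in 20 such groups, and 157 values were looked at. In 9 of them the array was replicate 1: Neat1 (-3.73), Tcn2 (-2.30), Itgb1 (-1.47), Fas (-0.87), Mest (-0.48), Igfbp3 (0.49), Col4a5 (0.85), Cmtm3 (1.00) and Ankrd33b (1.28). In Ddx58 it was replicate 3 (-0.32), and in Ciart replicate 4 (0.20).

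Effects that differed between day 28 and day 21, by limma's test of the difference, numbered 777. Among the genes named in the text, the differences that were lower at day 28 were Spon2 (-2.08), Cdk19 (-1.94), Tgtp1 (-1.58), Col4a1 (-1.54), Arntl (-1.54), Gpx3 (-1.43), Igtp (-1.40), Mfap4 (-1.38), Col1a1 (-1.31), Fn1 (-1.25), Hbb-b1 (-1.12), Tnc (-0.89) and S100a9 (-0.65). Those that were higher were Igfbp3 (1.05), Pknox2 (0.97), Efna1 (0.85), Cbr2 (0.79), Nr1d2 (0.76), Klf4 (0.71), Usp2 (0.66) and Hmcn1 (0.62).

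Between day 28 and the mean of the other recovery days, 1849 effects differed by the same test. The named genes lower at day 28 were S100a9 (-1.73), Hbb-b1 (-1.63), Got2 (-1.57), Phtf1 (-1.49), Tgtp1 (-1.45), Hbb-y (-1.33), Igtp (-1.32), Bst2 (-1.31) and Phf11d (-1.30). Those higher were Cirbp (0.83), Pknox2 (0.74), Ankrd33b (0.72), Tns3 (0.67), Hmcn1 (0.64), Rbm3 (0.58), Chn1 (0.56) and Ctdspl (0.55). No explanation of these differences was tested.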

How the results depend on the processing

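At day 28, leaving out 1 of its arrays gave 2159 (without replicate 1) to 3752 called features, against 3942. The replicate pair as a random block gave 2517 (consensus correlation 0.422) and pair means 1972. For day 28 minus day 21 (777), leaving out 1 array gave 243 to 1053, replicates 3 and 4 alone 179, the pair as a random block 143, pair means 68, only the days compared 137 and a common spread 505. For day 28 minus the other recovery days (1849), the same settings gave 506 to 1900, then 442, 536, 176 and, with a common spread, 1067. The replicate number as a fixed block (replicate block) gave 4879, 1384 and 2594 calls, and the numbers are not known to pair samples. The remaining settings kept each count within 1.5 times. The cause of these changes was not tested.

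Of the 137 named genes called at day 28, 102 kept their call and sign under every setting that gave a value, and 122 did without replicate 1. Part of this was set by the choice of genes. Those with the largest means were picked among features called with and without replicate 1, and list members by low p and 1 sign. Over all features, 2111 of the 3942 called at day 28 were also called without replicate 1. The 15 named genes that lost their call without replicate 1 were Ifi30, Ppox, Ctsa, Tef, Ciart, Gsto1, Id1, Tgfbr1, Cbr2, Ankrd33b, Dcn, Alas1, Tfrc, Igf1 and Plagl1. Of the named differences, 13 of 21 from day 21 and 13 of 17 from the other recovery days kept theirs under every such setting. No called value changed sign, which the choice of genes with 1 sign on all arrays also favours. Values near 0 that were not called did. Leaving out 1 array gave -0.05 to 0.04 for Mfap4, -0.06 to 0.00 for Arntl, -0.11 to 0.04 for Per3, -0.06 to 0.00 for Slc2a1 and -0.03 to 0.09 for Cdh5. Replicates 3 and 4 alone gave 0.01 for Mfap4, 0.01 for Tnc and 0.05 for Nr1d2. Replicates 1 and 2 alone gave 0.08 for Ifitm2, 0.01 for Arntl, 0.04 for Per3 and -0.08 for Cdh5. Mfap4 read 0.01 with a common spread and 0.03 with array weights. Channel intensities were not used here, so which ratios come from dim spots is unknown.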

Other observations

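In the list of the IGF axis and imprinted growth genes, 3 of 16 were lower and 1 higher at day 28 (1 and 0 without replicate 1), against 13.5% and 18.6% over all features. Mest, an imprinted gene of the fetal growth network, read -0.48, -0.30, -0.30 and -0.33 (mean -0.35 ± 0.09, SD, n = 4; adjusted p = 6e-05, limma) after a day 21 mean of 0.60. Igf1 was lower at -0.24 ± 0.13 (adjusted p = 0.0095, and 0.13 without replicate 1), and the imprinted zinc finger gene Plagl1 was higher at 0.32 ± 0.25 (adjusted p = 0.0014, and 0.074 without replicate 1). Lamc1, the gamma 1 chain of basement membrane laminins, read -0.70, -0.62, -0.36 and -0.71 (mean -0.60 ± 0.16, adjusted p = 4.7e-07), with its 3 spots between -1.04 and -0.33, and the integrin chain Itga9 had -0.73 ± 0.41. In the list of integrins, laminins and junction genes, 7 of 38 were higher and 7 lower (4 and 6 without replicate 1), against 18.6% and 13.5% over all features. Of 59 cell cycle genes, 4 were higher and 7 lower (4 and 4 without replicate 1), against 18.6% and 13.5% over all features. Among them, Cdc25c, which triggers entry into mitosis, was higher (0.39 ± 0.09), and Hmgb2, a chromatin protein of dividing cells, was lower (-0.33 ± 0.06).

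Enzymes of the heme pathway differed in direction. Alad read 0.62, 0.38, 0.40 and 0.13 (mean 0.38 ± 0.20, adjusted p = 0.0012), and Cpox 0.49, 0.39, 0.22 and 0.17 (mean 0.32 ± 0.15, adjusted p = 0.00084). Ppox, a later enzyme of the pathway, read -0.76, -0.12, -0.18 and -0.28 (mean -0.34 ± 0.29, adjusted p = 0.035, and 0.37 without replicate 1), and Uros, Urod and Fech were not called (-0.04, 0.06 and 0.01). The iron store ferritin Fth1 was higher (0.33 ± 0.20). The transferrin receptor Tfrc was lower (-0.29 ± 0.22, adjusted p = 0.016, and 0.13 without replicate 1), with its 3 spots between -0.54 and 0.00. Over the list of 18, 4 were higher and 4 lower (3 and 0 without replicate 1), against 18.6% and 13.5% over all features. Metallothionein Mt2, above control at day 21 (0.50), read -0.06, -0.28, -0.55 and -0.31 (mean -0.30 ± 0.20, adjusted p = 0.025). It lost its call with the replicate pair as a random block (adjusted p = 0.13). Of 2 metallothioneins tested it was the 1 called. Of 21 immediate early and stress genes, 5 were higher and 7 lower (3 and 5 without replicate 1), against 18.6% and 13.5% over all features. Egr1 (-0.36 ± 0.10), Klf9 (-0.47 ± 0.27) and Rgs2 (-0.48 ± 0.07) were below 0 on all 4 arrays. The members called higher were Klf4 (0.547), Atf3 (0.467), Ier5 (0.465), Jun (0.343) and Fos (0.246), each above 0 on every measured array. Members were therefore called in both directions, the higher ones at a share near that over all features.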
